A study of Mus musculus with 33 samples.

Results

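Messenger RNA of 10 receptor genes for myeloid cytokines was followed in sorted blood stem and progenitor cells of old mice, with and without nicotinamide riboside. The genes were chosen by name and function: Csf1r, Csf2ra, Csf2rb, Csf2rb2, Csf3r, Il3ra, Il6ra, Il6st, Il1r1 and Il10ra, 10 of the 55376 gene symbols counted in every library. All 10 were found, and all 10 passed the low-count filter in each comparison below.

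The study sequenced total RNA of bone marrow populations from old C57BL/6 males, 24 to 29 months of age. Untreated mice are called O-WT. O-NR mice drank water with nicotinamide riboside (NR), a precursor of NAD+, for 4 to 6 weeks, and O-NR-RC mice had NR followed by 2 months of withdrawal. Cohort 2 holds 24 libraries, 4 untreated and 4 NR libraries from each of 3 populations: hematopoietic stem cells (HSCs), progenitors of the lymphoid branch (common lymphoid progenitors, CLPs) and those of the granulocyte and monocyte branch (GMPs). Cohort 1 holds 9 HSC libraries, of which 2 are O-WT, 4 are O-NR and 3 are O-NR-RC. HSCs were sorted as Lin-cKit+Sca1+CD34-Flk2-CD150+ and CLPs as Lin-IL-7Ra+Flk2+, where Lin- means free of mature blood cell markers. The GMP libraries carry the name GMP in their titles but common myeloid progenitor as their source, and they are called GMPs here; their gate is not given in the sources used here. No label says whether a library is 1 mouse or a pool, so p-values measure the spread between libraries only, which may in part be technical. In bulk RNA, fewer cells that express a gene and less RNA per cell cannot be told apart.

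Myeloid cytokines act through receptor chains at the cell surface. The receptors for M-CSF and G-CSF work as pairs of the same chain, whereas GM-CSF, IL-3 and IL-6 each bind a private alpha chain that then recruits a shared signalling chain. Most of these chains carry no kinase of their own and use Janus kinases and STAT transcription factors, with M-CSF (a receptor tyrosine kinase) and IL-1 (a Toll-like adaptor route) as the exceptions. In marrow these signals govern survival, proliferation and the choice of lineage.

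Levels are given in CPM, the reads counted for a gene divided by the library's total after correction for library composition, on the usual CPM scale. Counted reads ran from 8434214 to 14479453 in cohort 2 HSCs, 4792380 to 12058957 in CLPs, 11755798 to 18213674 in GMPs and 8897256 to 23816042 in cohort 1. Within cohort 2 each population held its own markers: 8 HSC markers summed to 1646 to 2274 CPM in HSCs and at most 153.4 CPM in the others, 8 CLP markers to 1963 to 4548 CPM in CLPs and at most 52.8 CPM in the others, and 8 GMP markers to 17067 to 25288 CPM in GMPs and at most 538.1 CPM in the others. The HSC list includes Slamf1 (CD150) and the CLP list Il7r and Flt3 (Flk2). These are antigens of the sorts, so part of those sums follows from the gates. In cohort 1 the HSC markers stood apart in 4 libraries, O-NR 1 and 2 and O-NR-RC 2 and 3 (811 to 935.6 CPM against 1572 to 2355 CPM in the other 5). Olfactory and vomeronasal receptor genes, which blood cells are not known to transcribe and which serve here as a measure of stray reads, summed to 1242 to 5560 CPM in cohort 2 and 6736 to 11886 CPM in cohort 1.

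Most of the receptors differed between the 3 populations of untreated old mice. Against HSCs, GMPs had higher Csf1r, Csf2rb, Il6ra, Il3ra and Csf2ra and lower Il1r1 and Il10ra. Csf3r was high in HSCs and GMPs alike and low in CLPs. CLPs held the highest Il10ra and Il1r1. Csf2rb2, the twin of Csf2rb, stayed between 14.5 and 30.5 CPM in every O-WT library of cohort 2.

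With the edgeR quasi-likelihood test and a Benjamini-Hochberg adjusted p below 0.05 as the call, 7 of the 10 receptors differed between GMPs and HSCs of O-WT mice (5 higher, 2 lower), where 46.8% of the 20044 genes tested did (21% higher, 25.7% lower). Between CLPs and HSCs 7 differed (5 higher, 2 lower) against 30.3% of genes (9.57% higher, 20.7% lower), and between GMPs and CLPs 8 differed (6 higher, 2 lower) against 62.1% of genes (27.2% higher, 34.9% lower). The median absolute log2 fold change over the 10 receptors was 1.06, 0.80 and 1.90 in these comparisons, and over all genes tested 0.68, 0.45 and 0.83. The O-NR libraries gave 6 called receptors between GMPs and HSCs (5 higher, 1 lower) against 45.8% of 18080 genes (25% higher, 20.8% lower), 7 between CLPs and HSCs (5 and 2) against 40.8% (19.8% and 20.9%), and 9 between GMPs and CLPs (6 and 3) against 49.3% (25.5% and 23.8%). The same call in the same direction was made in O-WT and O-NR for 6, 7 and 8 receptors, and for none in opposite directions. The share of all genes called alike in both was not computed, so these counts do not set the receptors apart from other genes. Scaling matters for such counts. In O-WT, median-of-ratios scaling moved the median log2 fold change of all genes by 0.27 for GMPs against HSCs and 0.18 for GMPs against CLPs, and upper quartile scaling by -0.18 and -0.43, and by 0.24 for CLPs against HSCs. The share of all calls that were higher moved from 45% to 60% and 37.9% for GMPs against HSCs, from 31.6% to 43% and 51.2% for CLPs against HSCs, and from 43.8% to 51.1% and 23.5% for GMPs against CLPs. In O-NR, upper quartile scaling moved the median by -0.26 and -0.33 for GMPs against HSCs and CLPs, and that share from 54.5% to 41% and from 51.7% to 27.4%. The 3 comparisons share libraries and are not independent of each other. The number of called receptors ranged over the processing alternatives from 5 to 7, 5 to 7 and 8 to 9 in O-WT and from 6 to 7, 6 to 7 and 8 to 9 in O-NR.

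**Figure D1:**
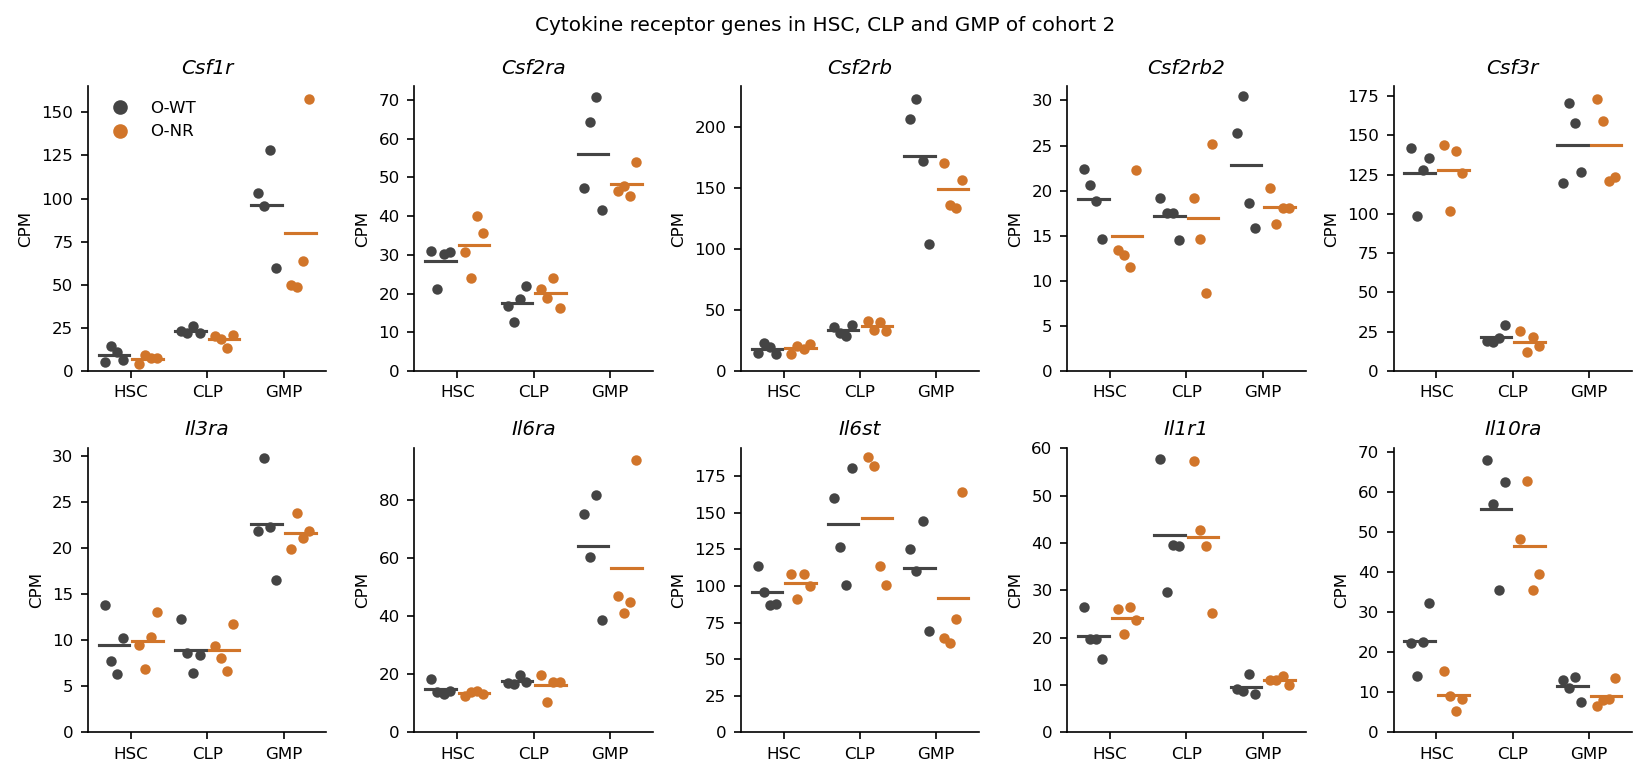
CPM of each of the 10 receptor genes in the 24 libraries of cohort 2, by cell type (horizontal axis, HSC, CLP, GMP) and treatment (dark grey O-WT, orange O-NR); points are libraries and lines are group means. Csf2rb in GMPs lies between 104.1 and 223.3 CPM, above every HSC and CLP library (at most 41.0 CPM), whereas Csf2rb2 overlaps between all 3 populations.

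**Figure D2:**
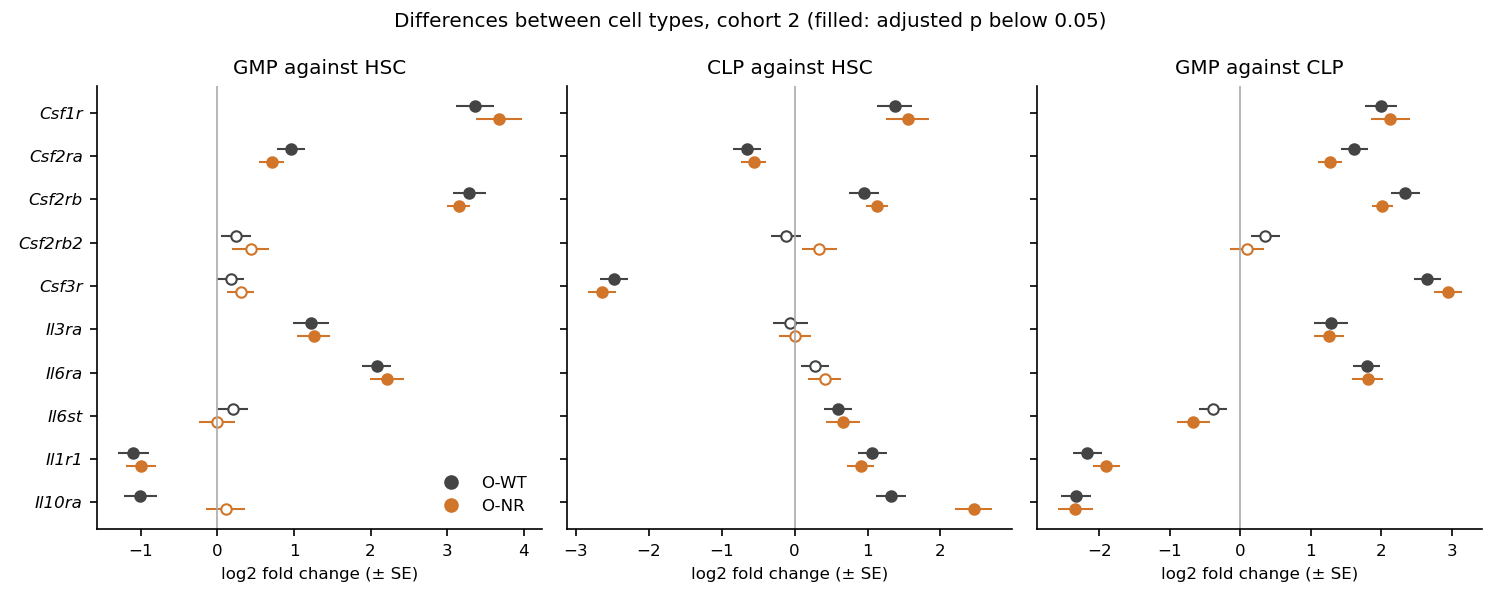
Log2 fold change with its standard error (horizontal bars) for each receptor between GMPs and HSCs, CLPs and HSCs, and GMPs and CLPs, in O-WT (grey) and O-NR (orange); filled points have an adjusted p below 0.05. Csf1r and Csf2rb lie farthest to the right for GMPs against HSCs (3.37 and 3.29 in O-WT), and Csf3r farthest to the left for CLPs against HSCs (-2.48).

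The GM-CSF, IL-3 and IL-5 receptors share a signalling chain, Csf2rb. The mouse has a second copy, Csf2rb2, that serves IL-3 alone. The genes lie next to each other on chromosome 15 of GRCm38, Csf2rb from 78325752 to 78353847 on the plus strand and Csf2rb2 from 78282507 to 78305721 on the minus strand. Their coding sequences (2691 and 2637 bases, Gencode M21) were identical at 95.3% of 2629 aligned bases. A read can therefore name its gene only where the copies differ. Of the distinct 50-base windows of the transcripts, 12.3% for Csf2rb and 18.9% for Csf2rb2 also occur in another gene, and of the 100-base windows 4.63% and 6.82%, so both levels carry some uncertainty. The 60 coding bases in which the copies differ most, at 13 positions, show how the reads tell them apart. Capitals mark the differing bases, in coding positions 304 to 363 of Csf2rb and 307 to 366 of Csf2rb2.
Csf2rb: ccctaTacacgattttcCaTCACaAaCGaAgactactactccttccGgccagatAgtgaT
Csf2rb2: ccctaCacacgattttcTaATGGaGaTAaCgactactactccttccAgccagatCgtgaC
The 60 bases just before, positions 245 to 304 and 248 to 307, have no difference, and a read within them fits both genes.
Csf2rb and Csf2rb2: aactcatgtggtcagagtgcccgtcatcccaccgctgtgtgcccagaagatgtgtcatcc

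Despite this likeness the copies had different levels across the populations. Csf2rb was 14.9, 22.6, 19.5 and 14.1 CPM in the 4 O-WT HSC libraries, 36.3, 30.9, 28.5 and 38.0 CPM in CLPs and 206.3, 223.3, 172.4 and 104.1 CPM in GMPs. The populations did not overlap. By the edgeR test GMPs were 9.78-fold above HSCs (log2 3.29, SE 0.21, adjusted p = 2.96e-14) and 5.08-fold above CLPs (log2 2.34, SE 0.20, adjusted p = 7.87e-11), and CLPs were above HSCs by 0.95 on the log2 scale (SE 0.20, adjusted p = 0.000431). O-NR libraries gave 3.15, 2.01 and 1.14, all called.

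Csf2rb2 was 22.4, 20.6, 18.8 and 14.6 CPM in O-WT HSCs, 19.1, 17.5, 17.5 and 14.5 CPM in CLPs and 26.4, 30.5, 18.6 and 15.9 CPM in GMPs. All 3 populations overlapped. The log2 differences were 0.24 (SE 0.20) for GMPs against HSCs, -0.12 (SE 0.20) for CLPs against HSCs and 0.36 (SE 0.20) for GMPs against CLPs, with edgeR adjusted p of 0.308, 0.688 and 0.115. The difference between GMPs and CLPs was called under 4 alternatives, at 0.54 with median-of-ratios scaling, 0.75 with no filter on low counts, 0.68 with edgeR's own filter and 0.94 with DESeq2, and also without GMP O-WT library 3 (0.56) or 4 (0.58). Upper quartile scaling turned it to -0.10. In O-NR the values were 0.43, 0.34 and 0.09, none called, with a call for GMPs against HSCs without HSC O-NR library 4 (0.65).

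The ratio of Csf2rb to Csf2rb2 counts within a library does not depend on scaling. It was 0.66, 1.10, 1.04 and 0.97 in the O-WT HSC libraries, 1.90, 1.76, 1.63 and 2.62 in the CLPs and 7.81, 7.32, 9.28 and 6.55 in the GMPs. HSCs thus had about as many reads from either copy, and GMPs had a geometric mean ratio of 7.68 against 0.92 in HSCs, 8.31 times as high. In O-NR libraries the ratio was 1.06, 1.59, 1.55 and 1.00 in HSCs, 2.14, 2.26, 4.59 and 1.31 in CLPs and 8.41, 8.32, 7.41 and 8.63 in GMPs. Groups did not overlap in 5 of the 6 cell type comparisons, each with p = 0.0286 in an exact two-sided permutation test, the smallest that 4 against 4 libraries allow (adjusted p = 0.0514 over 9 comparisons, so none passed 0.05). CLPs and HSCs of O-NR mice overlapped (exact permutation p = 0.0857, adjusted 0.129). O-NR and O-WT ratios overlapped within each population (exact permutation p of 0.171, 0.629 and 0.429 in HSCs, CLPs and GMPs).

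**Figure D3:**
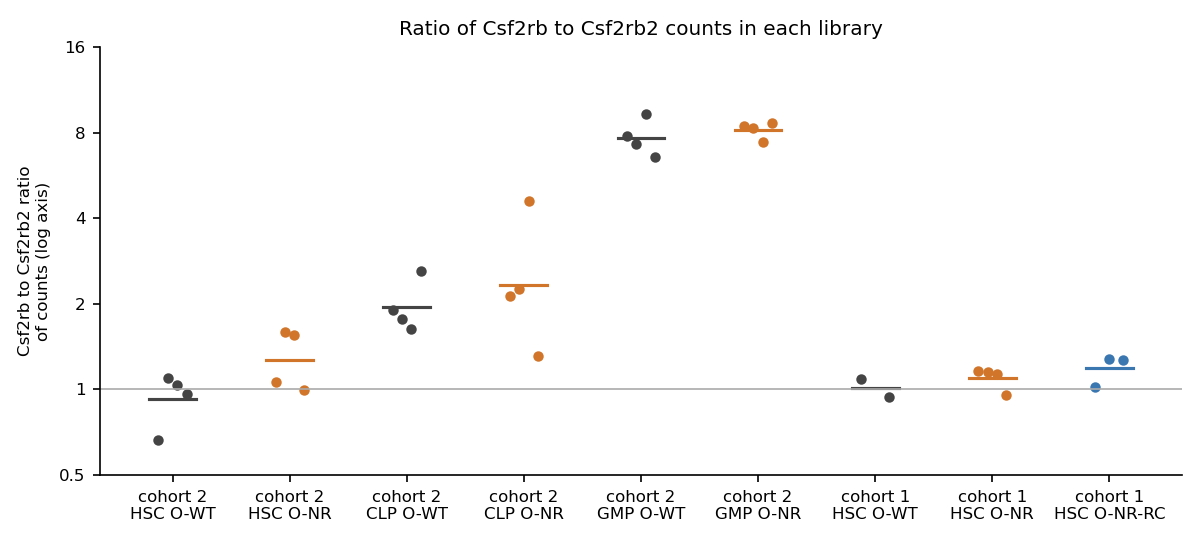
Ratio of Csf2rb to Csf2rb2 counts (log axis) in each library of both cohorts (dark grey O-WT, orange O-NR, blue O-NR-RC); points are libraries, short bars are geometric means, and the grey line marks equal counts. GMP libraries lie between 6.55 and 9.28, all HSC libraries of both cohorts between 0.66 and 1.59.

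Csf2ra and Il3ra are the alpha chains that bind GM-CSF and IL-3 and pair with those beta chains. Csf2ra was 31.1, 21.1, 30.2 and 30.8 CPM in O-WT HSCs, 16.8, 12.6, 18.6 and 21.9 CPM in CLPs and 47.3, 64.3, 70.7 and 41.5 CPM in GMPs. GMPs lay above all others, and the lowest HSC library fell within the CLP range. In the edgeR test GMPs exceeded HSCs by 0.96 (SE 0.19, adjusted p = 6.29e-05) and CLPs by 1.62 (SE 0.19, adjusted p = 4.14e-08) on the log2 scale. CLPs against HSCs gave -0.66 (SE 0.19, adjusted p = 0.00776), a call lost with upper quartile scaling (-0.42), with no filter on low counts (-0.75), with DESeq2 (-0.83) and without CLP O-WT library 2 (-0.54), where adjusted p lay between 0.0551 and 0.064. O-NR libraries gave 0.71, 1.27 and -0.56, all called. Csf2ra lies on chromosome 19 of GRCm38 from 61223957 to 61228429.

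Il3ra was low throughout, at 13.8, 7.78, 6.34 and 10.2 CPM in O-WT HSCs, 12.3, 8.64, 6.43 and 8.38 CPM in CLPs and 21.9, 29.8, 22.3 and 16.6 CPM in GMPs. GMPs did not overlap the other populations, which overlapped each other. GMPs were higher than HSCs by 1.22 (SE 0.24, edgeR adjusted p = 6.34e-05) and than CLPs by 1.29 (SE 0.24, edgeR adjusted p = 5.93e-05) on the log2 scale, and CLPs against HSCs gave -0.06 (SE 0.24, edgeR adjusted p = 0.869). In O-NR libraries the values were 1.26, 1.26 and 0.00, the first pair called. Il3ra lies on chromosome 14 from 14346275 to 14356011. Genes of basophils and mast cells, which carry the IL-3 receptor, moved the same way: 6 markers summed to 138.8 to 833.9 CPM in GMPs against 6.14 to 13.4 CPM in HSCs and 12.01 to 29.8 CPM in CLPs, none at 0 over a group, and their part in Il3ra and Csf2rb was not tested.

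Csf1r encodes the M-CSF receptor, the tyrosine kinase that monocytes and macrophages depend on. Its level in O-WT HSC libraries 1 to 4 was 5.30, 14.2, 11.2 and 6.50 CPM, in CLPs 22.9, 22, 26.1 and 21.9 CPM, and in GMPs 103.0, 95.4, 128.0 and 59.6 CPM. The 3 populations did not overlap, with HSCs lowest, CLPs between and GMPs highest. By the edgeR test the log2 fold change was 3.37 (SE 0.25, 10.3-fold, adjusted p = 5e-13) for GMPs against HSCs, 1.37 (SE 0.24, adjusted p = 2.91e-05) for CLPs against HSCs and 2.00 (SE 0.23, adjusted p = 2.57e-08) for GMPs against CLPs. In the O-NR libraries the values were 3.68, 1.55 and 2.13, all called. The HSC level rested on 44 to 135 reads a library in cohort 2, and per kilobase of exon it was 2.07 to 4.39 times the olfactory and vomeronasal level. A list of 10 monocyte and macrophage markers was high in CLPs as well (219.6 to 353.9 CPM summed, against 25.5 to 55.1 CPM in HSCs and 176.1 to 388.3 CPM in GMPs, none of its genes at 0 over a group). So were 7 dendritic cell markers (502.6 to 856.5 CPM in CLPs against 162.8 to 316.0 CPM in HSCs and 76.01 to 171.4 CPM in GMPs). Flt3 (Flk2), an antigen of the CLP sort, is among these 7, so their sum in CLPs follows in part from the gate. Its mean was 453.7 and 480.7 CPM in O-WT and O-NR CLPs, against 13.95 and 13.11 CPM in HSCs. The part of both lists in the Csf1r level of CLPs was not tested. On GRCm38, Csf1r lies on chromosome 18 from 61100598 to 61132149, and 15.1% of its exon bases overlap Hmgxb3 on the opposite strand, whose reads cannot be told apart from those of Csf1r if the counting ignored strand, a setting not given in the sources used here.

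Csf3r encodes the G-CSF receptor, the main growth factor receptor of neutrophils. It was 141.9, 98.9, 127.8 and 135.5 CPM in O-WT HSCs, 18.9, 18.4, 21.1 and 29.2 CPM in CLPs and 120.0, 170.7, 158.0 and 126.6 CPM in GMPs. HSCs and GMPs overlapped, and all CLP libraries lay below both. With edgeR's test CLPs were lower than HSCs by a log2 fold change of -2.48 (SE 0.19, adjusted p = 1.99e-12) and GMPs higher than CLPs by 2.65 (SE 0.19, adjusted p = 8.96e-13). GMPs against HSCs gave 0.17 (SE 0.18, edgeR adjusted p = 0.408), a value that upper quartile scaling turned to -0.02. O-NR libraries gave -2.64, 2.95 and 0.30, of which the last was not called (edgeR adjusted p = 0.184). Csf3r lies on chromosome 4 from 126024550 to 126044440. Of the distinct 50-base windows of its transcripts 10.5% also occur in other genes, and of the 100-base windows 0.376%.

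Il6ra binds IL-6, and Il6st (gp130) is the signalling chain it shares with the receptors for IL-11, LIF and oncostatin M. These partners did not move together. Il6ra was 18.3, 13.8, 13.4 and 14.3 CPM in O-WT HSCs, 17.0, 16.7, 19.7 and 17.3 CPM in CLPs and 75.2, 60.5, 81.8 and 38.6 CPM in GMPs. GMPs stood above the others, which overlapped. By the edgeR test GMPs exceeded HSCs by 2.08 (SE 0.19, adjusted p = 9.7e-11) and CLPs by 1.80 (SE 0.19, adjusted p = 5.45e-09) on the log2 scale, with 2.22 and 1.81 in O-NR libraries, both called. CLPs against HSCs gave 0.28 (SE 0.19, edgeR adjusted p = 0.296), called at 0.53 with upper quartile scaling, and 0.41 in O-NR, called at 0.54 without CLP O-NR library 2. Il6ra lies on chromosome 3 from 89864059 to 89913196 and Il6st on chromosome 13 from 112464070 to 112510086.

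The sequences just upstream of the start of Il6ra and Csf3r are shown because they hold the core AGGAAG bound by the myeloid factor Spi1 (PU.1), a regulator of several of these receptors. They are from RefSeq on GRCm38.p6 and end at the annotated gene start. Il6ra is chr3:89913197-89913446, minus strand, and Csf3r chr4:126024409-126024549, plus strand. Capitals mark matches to AGGAAG or to the GATA motif AGATAA, searched on both strands.
Il6ra: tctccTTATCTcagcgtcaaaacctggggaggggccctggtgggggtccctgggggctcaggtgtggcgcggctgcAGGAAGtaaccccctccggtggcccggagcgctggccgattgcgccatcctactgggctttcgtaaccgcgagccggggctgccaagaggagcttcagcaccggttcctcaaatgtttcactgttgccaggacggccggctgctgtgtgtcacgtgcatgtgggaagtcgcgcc
Csf3r: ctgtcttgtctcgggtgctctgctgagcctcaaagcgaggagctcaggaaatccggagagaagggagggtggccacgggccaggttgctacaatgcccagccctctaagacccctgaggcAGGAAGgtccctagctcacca
In RefSeq windows from 250 bases before to 50 bases after a start, AGGAAG occurred in 5 of the 7 receptors with a window and in 35.4% of all 32851 windows, so its presence is common. The C/EBP motif TTGCNNAA occurred for 2 of the 7 (Il1r1 and Il3ra) and in 10.8% of windows, AGATAA for Il6ra and in 11.2% of windows, and the longer PU.1 site GAGGAAGT, which contains AGGAAG, for Csf2rb2 and in 3.2% of windows.

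Il6st was 113.5, 95.7, 87.2 and 87.9 CPM in O-WT HSCs, 160.4, 126.7, 100.5 and 180.8 CPM in CLPs and 125.1, 110.0, 144.5 and 69.4 CPM in GMPs. All 3 populations overlapped. In the edgeR test CLPs were above HSCs by 0.60 on the log2 scale (SE 0.20, adjusted p = 0.0199), GMPs against HSCs gave 0.21 (SE 0.20, adjusted p = 0.378) and GMPs against CLPs -0.39 (SE 0.20, adjusted p = 0.0815). In O-NR libraries CLPs were above HSCs by 0.66 (edgeR adjusted p = 0.0247) and GMPs below CLPs by a log2 fold change of -0.67 (edgeR adjusted p = 0.0211). These calls were fragile. The call for CLPs against HSCs was lost in O-WT without HSC library 3 (0.53) or 4 (0.57) and without CLP library 1 (0.51) or 4 (0.47), with edgeR adjusted p from 0.0796 to 0.104. It was also lost in O-WT with no filter on low counts (0.55), with edgeR's own filter (0.44), with DESeq2 (0.49) and with all 24 libraries in one fit (0.57). The same call in O-NR was lost with no filter (0.46), edgeR's own filter (0.48) or DESeq2 (0.51), without any of the 4 HSC libraries (0.58 to 0.66) and without CLP library 1 (0.52) or 2 (0.51). That for GMPs against CLPs in O-NR was lost without CLP library 1 (-0.52) or 2 (-0.54) and without GMP library 1 (-0.49), 2 (-0.47) or 3 (-0.57), and with no filter (-0.50), edgeR's own filter (-0.46) or DESeq2 (-0.46). In O-WT that comparison became a call without CLP library 3 (-0.55) and with upper quartile scaling (-0.82), and in O-NR GMPs against HSCs became one without GMP library 4 (-0.47, from -0.00 with all).

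Il1r1, the signalling receptor of IL-1, ran the other way. It was 26.4, 19.8, 19.8 and 15.5 CPM in O-WT HSCs, 57.7, 29.7, 39.5 and 39.5 CPM in CLPs and 9.19, 8.82, 12.2 and 8.12 CPM in GMPs. The populations did not overlap, CLPs highest and GMPs lowest. By the edgeR test CLPs exceeded HSCs by 1.07 (SE 0.20, adjusted p = 4.84e-05) on the log2 scale, and the log2 fold change of GMPs was -1.10 against HSCs (SE 0.20, adjusted p = 3.29e-05) and -2.17 against CLPs (SE 0.20, adjusted p = 4.1e-10). O-NR libraries gave 0.90, -0.997 and -1.90, all called. DESeq2 did not call GMPs against HSCs in O-WT (-0.72, adjusted p = 0.118). Il1r1 lies on chromosome 1 from 40225080 to 40317257.

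Il10ra, the ligand-binding chain of the receptor for the anti-inflammatory cytokine IL-10, was 22.3, 14.1, 22.5 and 32.2 CPM in O-WT HSCs, 67.9, 57.0, 35.6 and 62.5 CPM in CLPs and 13.1, 11.1, 13.9 and 7.70 CPM in GMPs. The order was that of Il1r1, again with no overlap. With edgeR's test CLPs exceeded HSCs by 1.32 (SE 0.21, adjusted p = 5.66e-06), and GMPs gave -1.01 against HSCs (SE 0.22, adjusted p = 0.000233) and -2.33 against CLPs (SE 0.22, adjusted p = 3.86e-10), the first of which DESeq2 did not call (-0.64, adjusted p = 0.291). O-NR libraries gave 2.45, 0.11 and -2.34, and here GMPs and HSCs did not differ by the test (edgeR adjusted p = 0.777). B and plasma cell markers (8 genes) were also high in CLPs, at 491 to 1070 CPM summed against 21.6 to 739.4 CPM in HSCs and 45.9 to 130.4 CPM in GMPs, with none at 0 over a group, and their part in Il10ra was not tested. Il10ra lies on chromosome 9 from 45253837 to 45269149.

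Set against each other per kilobase of exon, a scale on which genes can be compared, the receptors ranked differently in each population. Csf3r led in O-WT HSCs at 34.9 ± 5.27 CPM per kb (SD, n = 4), above every other receptor there. Csf2ra (9.86 ± 1.67) and Il6st (8.66 ± 1.10) followed, and Il6ra (1.73 ± 0.26) and Csf1r (1.61 ± 0.72) came last. From Csf2ra downwards each receptor overlapped its neighbour in the order.

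In O-WT CLPs Il10ra (15.9 ± 4.04 CPM per kb) and Il6st (12.8 ± 3.21) led with overlapping values, ahead of Il1r1 (6.54 ± 1.84), and Il6ra was last (2.05 ± 0.16). Every neighbour in that order overlapped the next. O-WT GMPs had Csf3r first again (39.9 ± 6.77 CPM per kb), clear of Csf2rb (24.3 ± 7.24), Csf2ra (19.5 ± 4.81) and Csf1r (16.7 ± 4.89). Il10ra (3.28 ± 0.79) and then Il1r1 (1.51 ± 0.29) closed the order without overlapping. Csf2rb thus had rank 8 of 10 in HSCs and rank 2 in GMPs.

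The related gene lists are given by their calls and medians, beside a median log2 fold change over all genes tested of -0.40 for GMPs against HSCs, 0.04 for CLPs against HSCs and -0.32 for GMPs against CLPs in O-WT. Of all genes tested in O-WT, 21% were called higher and 25.7% lower in GMPs than in HSCs, 9.57% and 20.7% in CLPs than in HSCs, and 27.2% and 34.9% in GMPs than in CLPs. In O-NR these shares were 25% and 20.8%, 19.8% and 20.9%, and 25.5% and 23.8%. Each list count is to be read against them, and no list was tested against other genes. Among 18 transcription factors known to act on these receptor genes, 9 were higher and 5 lower in O-WT GMPs than in HSCs by the edgeR test (median 0.85). Cebpa had the smallest p, at a log2 fold change of 6.71 (SE 0.26, adjusted p = 3.37e-19), followed by Irf8 (4.80) and Cebpe (5.03), and Egr1 (-3.79), Gata2 (-1.83) and Ets2 (-1.05) were lower. Spi1 was 98.2 to 168.7 CPM in the 8 GMP libraries and 19.9 to 40.3 CPM in the 8 HSC libraries of cohort 2. In CLPs 3 factors were higher than in HSCs (Irf8 4.58, Cebpa 2.37, Cebpe 1.03) and 9 lower (median -0.57), led by Gata2 (-5.49), Cebpb (-2.70) and Fli1 (-1.83), and for GMPs against CLPs 14 were higher and 2 lower (median 1.23). Cebpe was low in both CLPs (3.61 CPM) and HSCs (1.80 CPM). O-NR libraries gave 10 higher and 5 lower of 17 tested for GMPs against HSCs, 5 higher and 7 lower for CLPs against HSCs, and 11 higher and 2 lower for GMPs against CLPs.

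Partner and related receptors moved in both directions. Of 24 tested (26 listed), 7 were higher and 9 lower in O-WT GMPs than HSCs (median -0.40): Ifngr1 (log2 2.18), Ifngr2 (1.57) and Il5ra (2.21), the alpha chain that gives Csf2rb its IL-5 response, were among those higher, and Il27ra (-3.34) and Osmr (-2.46) among those lower. CLPs against HSCs had 7 higher and 10 lower (median -0.24), and GMPs against CLPs 8 and 10 (median -0.08), the former with Flt3 (5.05), Il7r (5.82), Il18r1 (1.97), Il11ra1 (-2.61) and Kit (-2.67) among those of smallest p. Flt3 (Flk2), Il7r and Kit were antigens of the sorts, so their differences follow from how the cells were chosen. O-NR libraries gave 7 higher and 10 lower, 9 and 10, and 9 and 10. Of all genes, 46.8%, 30.3% and 62.1% were called in these 3 comparisons in O-WT, and 45.8%, 40.8% and 49.3% in O-NR.

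Of the 15 ligands of these receptors, 6 passed the filter, with medians of -0.43, 0.27 and -0.99. Clcf1, a cytokine that signals through Il6st, was lower in O-WT GMPs than in HSCs (log2 -2.39, 3.94 against 20.4 CPM), and Csf1, the gene of M-CSF, was lower in CLPs than in HSCs (-1.15, 10.8 against 24.4 CPM). GMPs had higher Csf1 than CLPs (1.48) and lower Clcf1, Il1rn and Lif (-2.56, -1.17 and -1.48). O-NR libraries gave 0 higher and 1 lower for GMPs against HSCs, 2 and 1 for CLPs against HSCs, and 1 and 4 for GMPs against CLPs.

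Downstream of the receptors, 28 genes of JAK-STAT and proximal signalling gave 8 higher and 12 lower in O-WT GMPs than HSCs, among them Fes (1.99) and Cbl (0.97) on one side and Jak3 (-1.74), Stat4 (-1.54) and Dok2 (-1.38) on the other. In CLPs 3 were higher than in HSCs (among them Grap2 2.51 and Inpp5d 0.98) and 13 lower, among them Stat3 (-1.90), Jak3 (-1.71) and Stat5a (-1.49). For GMPs against CLPs 15 were higher and 5 lower, and the medians were -0.26, -0.43 and 0.50. O-NR counts were 8 and 11, 3 and 13, and 15 and 5. Among all genes of O-WT, 25.7% were called lower in GMPs than in HSCs, 20.7% lower in CLPs than in HSCs and 27.2% higher in GMPs than in CLPs.

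Of the 16 genes of IL-1 signalling, 0 were higher and 8 lower in O-WT CLPs than in HSCs (median -0.53), where 20.7% of all genes were called lower. Irak3, an inhibitor of the IL-1 and Toll-like receptor route, was lower by a log2 fold change of -3.28 (11.6 against 116.5 CPM), Nfkbia gave -1.25 and the adaptor Myd88 -1.21, while Il1r1 itself was higher in CLPs. GMPs against HSCs gave 2 higher (Map3k7 0.53, Irak4 0.39) and 4 lower (among them Sigirr -1.49, Nfkbia -1.49 and Rela -0.54), with a median of -0.04, a smaller share than the 46.8% of all genes called there. GMPs against CLPs gave 8 and 1 (median 0.41), where 62.1% of all genes were called. O-NR counts were 0 and 8 for CLPs against HSCs, 3 and 3 for GMPs against HSCs, and 8 and 1 for GMPs against CLPs.

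Genes listed under cytokine feedback (Socs, Pim and Pias genes, Cish and Usp18) were, where called, lower in GMPs and in CLPs than in HSCs. Whether the receptors switch on each of them here was not tested. Of 14 tested, 0 were higher and 9 lower in O-WT GMPs (median -1.32), led by Pim2 (-3.83), Cish (-3.58) and Socs3 (-3.95), and 0 were higher and 9 lower in CLPs (median -0.95), led by Pim2 (-2.87), Socs3 (-2.90) and Socs5 (-1.40). Of all genes, 25.7% and 20.7% were called lower in these comparisons. O-NR counts were 0 and 9, and 0 and 6, with 0 and 8 for GMPs against CLPs. In O-WT GMPs against CLPs gave 2 higher (Pim3 0.75, Socs7 0.42) and 7 lower (among them Socs2 -1.97, Cish -1.51 and Usp18 -1.16), with a median of -0.41.

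Across the 24 libraries of cohort 2 the receptors fell into groups by likeness, given here as Pearson's r of log2 CPM, a description over libraries that share their cell types and treatments. Csf1r, Csf2rb and Il6ra ran together (r = 0.949 for Csf1r and Csf2rb, 0.929 for Csf2rb and Il6ra, 0.908 for Csf1r and Il6ra). Csf3r and Il10ra ran against each other (r = -0.846). Of 22563 genes the most alike were Ccr2 (0.982) and Cybb (0.973) for Csf1r, Card9 (0.983), Ccl9 (0.983) and Ctsg (0.982) for Csf2rb, and Zfp111 (0.988), S100a1 (0.981) and Cd63 (0.980) for Csf3r. Nrg2 (0.965) came first for Il6ra, Napsa (0.964) for Il3ra, Kif13a (0.952) for Csf2ra, Mn1 (0.959) for Il1r1 and Gfra1 (0.916) for Il10ra. Il6st (Coro7, 0.853) and Csf2rb2 (Polr1e, 0.734) had no gene that close.

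NR was compared with no NR within each population, to ask whether the supplement alters receptor expression in old cells. No receptor passed an adjusted p of 0.05 by edgeR or by DESeq2 in HSCs, CLPs or GMPs of cohort 2 or in HSCs of cohort 1, and neither did any of the genes tested by edgeR, 13486 to 33350 a comparison (0% called). Receptors with an unadjusted p below 0.05 numbered 1 in cohort 2 HSCs, where 3.84% of genes had one, and 0 in CLPs (3.21%), GMPs (4.8%) and cohort 1 (0.546%). At an unadjusted p below 0.01 the counts were 1 in cohort 2 HSCs and 0 in CLPs (0.412% of genes), GMPs (0.986%) and cohort 1 (0.048%). Log2 fold changes ran from -1.32 to 0.22 in cohort 2 HSCs, -0.38 to 0.17 in CLPs, -0.26 to 0.25 in GMPs and -0.75 to 0.24 in cohort 1 HSCs.

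Il10ra was that receptor. In the 4 O-WT HSC libraries of cohort 2 it was 22.3, 14.1, 22.5 and 32.2 CPM, and in the O-NR libraries 15.2, 8.998, 5.35 and 8.22 CPM. The groups overlapped by a single crossing, O-WT 2 (14.1 CPM) below O-NR 1 (15.2 CPM). The means were 22.8 ± 7.42 and 9.44 ± 4.15 CPM (SD, n = 4 each), and the edgeR test gave a log2 fold change of -1.32 (SE 0.28, adjusted p = 0.428). Its unadjusted p was below 0.01, as for 0.726% of the 17364 genes tested. Over the alternatives the log2 fold change ranged from -1.64 to -1.09 and the adjusted p from 3.21e-06 to 1. It passed 0.05 with no filter on low counts (3.21e-06), with 1 factor of unwanted variation (0.0235), with libraries of the same number as a block (0.0222), without O-WT 2 (-1.47, 0.0273) and without O-NR 1 (-1.64, 0.0311). The factor was taken from the residuals of the same libraries, and the block joins O-WT and O-NR libraries not known to be pairs. Neither is an independent check.

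Markers of B and plasma cells varied between the same libraries, although the HSC sort excluded cells with the B cell antigen B220. The 8 markers summed to 168.7, 67.3, 224.9 and 739.4 CPM in the O-WT HSCs and 122.1, 26.7, 65.9 and 21.6 CPM in the O-NR HSCs, so the groups overlapped. Ighm, the immunoglobulin heavy chain, was 79.2, 15.98, 103.6 and 420.2 CPM in O-WT against 15.6, 1.88, 1.92 and 2.16 CPM in O-NR. O-WT library 2 was just above the highest O-NR library, and the groups did not overlap. Of the 5 markers tested, 0 had a positive and 5 a negative log2 fold change, 1 with an unadjusted p below 0.01 and 0 called by edgeR. The part of B and plasma cells in the Il10ra difference was not tested.

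**Figure D4:**
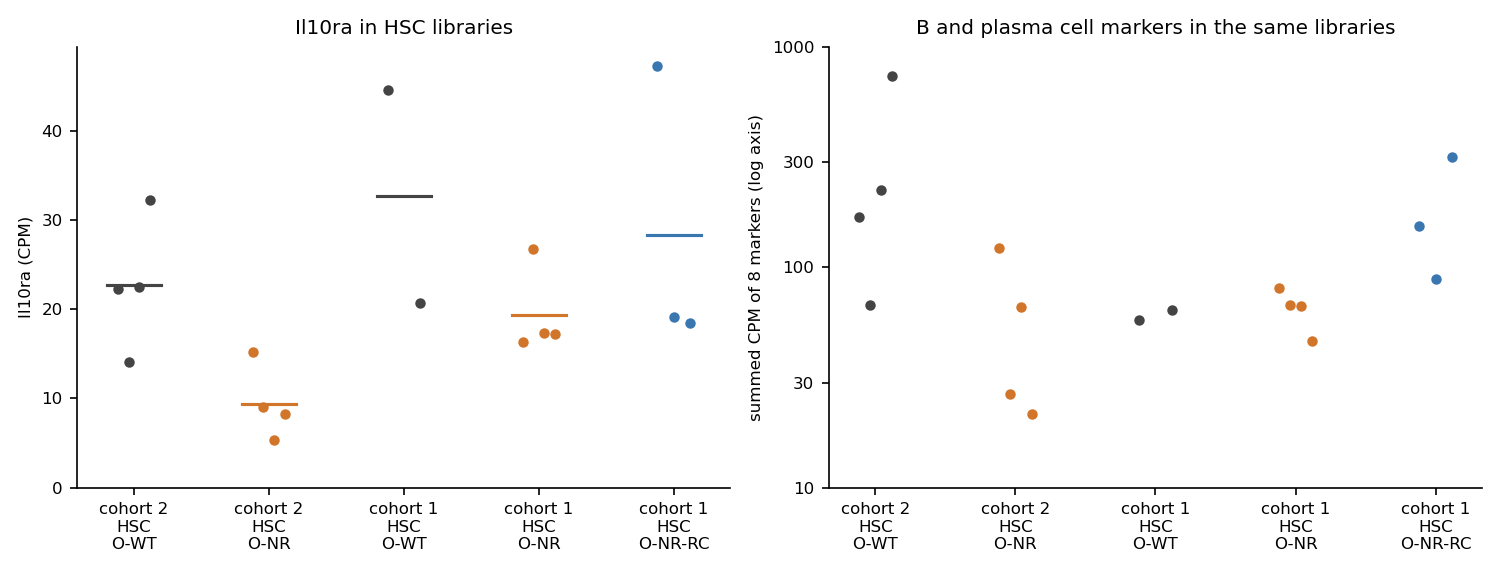
Left, Il10ra (CPM) in each HSC library of both cohorts, with group means as lines; right, the summed CPM of 8 B and plasma cell markers in the same libraries on a log axis. In cohort 2 the O-NR libraries lie at 5.35 to 15.2 CPM of Il10ra against 14.1 to 32.2 CPM in O-WT, and at 21.6 to 122.1 CPM of the markers against 67.3 to 739.4 CPM.

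In cohort 1 Il10ra was 44.6 and 20.7 CPM in the O-WT HSC libraries and 16.3, 26.8, 17.4 and 17.2 CPM in the O-NR libraries. The groups overlapped, as for all 10 receptors (5.71% of genes separated them), and O-WT 1 lay above the other 5 libraries. The edgeR test gave a log2 fold change of -0.75 (SE 0.41, adjusted p = 1), which was -0.10 without O-WT 1 and -1.22 without O-WT 2. Without the 4 libraries with low HSC markers, an alternative added after the data were seen, it was -0.94 (adjusted p = 0.0166). The B and plasma cell markers did not lie lower in O-NR here (57.4 and 63.7 CPM in O-WT against 46.1 to 80.2 CPM in O-NR).

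A fit over both cohorts with a cohort term gave -1.07 for Il10ra (SE 0.22, edgeR adjusted p = 1). Its unadjusted p was below 0.01, as for 0.0886% of genes (1.16% were below 0.05). This fit reuses the libraries of the single-cohort comparisons. The difference of the effect between cohorts was -0.49 (SE 0.45). In CLPs of cohort 2 Il10ra gave -0.29 (SE 0.20, edgeR adjusted p = 1) and in GMPs -0.26 (SE 0.23, edgeR adjusted p = 0.997). The effect in CLPs minus that in HSCs was 1.02 (SE 0.35, edgeR adjusted p = 1) and in GMPs minus HSCs 0.95 (SE 0.37, edgeR adjusted p = 1). Il10ra was the 1 receptor with an unadjusted p below 0.05 in either (2.38% and 1.42% of genes), and neither difference passed the correction.

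The other 9 receptors in cohort 2 HSCs lay between -0.46 and 0.22 on the log2 scale, with O-NR and O-WT libraries overlapping for each, so that 0 of the 10 receptors separated the groups (2.27% of genes did). Csf3r was 144.1, 102.1, 140.3 and 125.8 CPM in O-NR against 98.9 to 141.9 CPM in O-WT, and its log2 difference of -0.02 had an SE of 0.12. Il6st, the other abundant receptor of HSCs, gave 0.04 (SE 0.10). Of the 100 genes of the related lists tested in cohort 2 HSCs, 4 had an unadjusted p below 0.01 (0.726% of all genes did), all lower in O-NR and none called by edgeR: the feedback genes Pim2 (-0.71, adjusted p = 0.358), Socs2 (-1.21) and Cish (-0.89) and the factor Gfi1 (-0.56). Cish overlapped between these groups, at 34.1 to 136.6 CPM in O-WT and 34.7 to 49.2 CPM in O-NR. In cohort 1 HSCs the feedback genes were not lower in O-NR. Mean CPM in O-WT and O-NR there was 24.3 and 26.7 for Pim2, 17.85 and 20.43 for Socs2 and 35.2 and 36.6 for Cish. For Gfi1 it was 22.97 and 19.05.

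In CLPs the receptor with the smallest p was Csf1r. It was 20.1, 18.6, 13.4 and 20.9 CPM in O-NR CLPs against 22.9, 22, 26.1 and 21.9 CPM in O-WT. Every O-NR library lay below every O-WT library, a separation that 2.49% of the 19909 genes tested showed, and the edgeR test gave -0.38 (SE 0.20, adjusted p = 1). For the other receptors the groups overlapped.

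In GMPs library 4 of each group stood apart for many receptors. O-WT library 4 was the lowest of its group for 9 of the 10 receptors (40.4% of 22573 genes), O-NR library 4 the highest of its group for 5 (22.7%), and both held for Csf1r, Csf2ra, Il6ra, Il6st and Il10ra (8.67% of genes). Csf1r was 50.04, 48.6, 63.8 and 157.6 CPM in O-NR GMPs, Il6ra 47.1, 41.1, 44.9 and 93.8 CPM, and Il6st 64.4, 60.9, 77.2 and 164.4 CPM. In each the last library stood far above the other 3, which lay near O-WT library 4 (59.6, 38.6 and 69.4 CPM) and below O-WT libraries 1 to 3. Irf8, a factor of the monocyte branch, was 220.2, 237.2, 245.8 and 131.4 CPM in O-WT and 113.5, 108.9, 115.4 and 409.5 CPM in O-NR, and the 10 monocyte and macrophage markers summed to 313.4, 277.8, 331.5 and 191.9 CPM and to 181.9, 176.1, 191.1 and 388.3 CPM. Their part in the receptor levels was not tested.

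**Figure D5:**
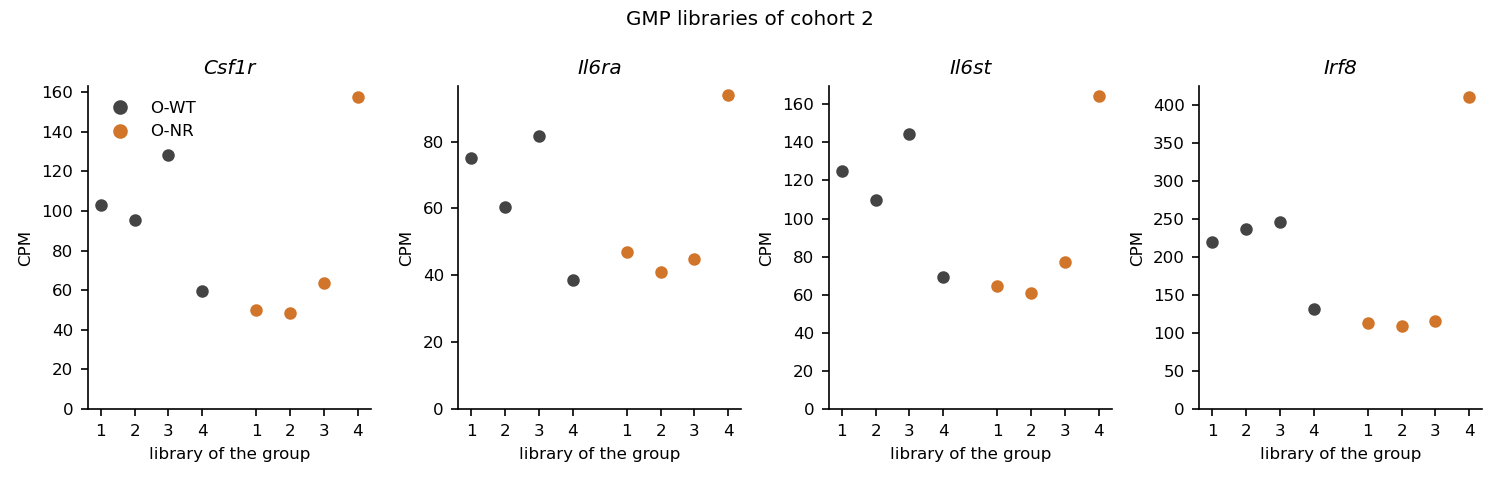
CPM of Csf1r, Il6ra, Il6st and Irf8 in the GMP libraries 1 to 4 of O-WT (grey) and O-NR (orange). Library 4 is the lowest O-WT library and the highest O-NR library in each panel, from 59.6 to 157.6 CPM for Csf1r and from 131.4 to 409.5 CPM for Irf8.

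With all 8 GMP libraries the receptor of smallest p was Csf2rb2, at 20.3, 16.3, 18.0 and 18.1 CPM in O-NR against 26.4, 30.5, 18.6 and 15.9 CPM in O-WT. The groups overlapped, as they did for all 10 receptors (1.45% of genes separated them), and the edgeR test gave -0.26 (SE 0.14, adjusted p = 0.997). Csf1r gave -0.21 (SE 0.31, edgeR adjusted p = 0.997). Without O-NR library 4 the log2 fold change was -0.77 for Csf1r (edgeR adjusted p = 0.154), -0.67 for Il6st (edgeR adjusted p = 0.207) and -0.47 for Il6ra (edgeR adjusted p = 0.451). Without O-WT library 4 Csf2rb gave -0.30 (edgeR adjusted p = 0.532). The 3 receptors named for the first case were the 3 of 10 with an unadjusted p below 0.01 there, where 2.21% of all genes had one, against 1.8% without O-WT library 4. These libraries were singled out after they were seen to be extreme for these genes.

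Withdrawal was asked of the HSCs of cohort 1. No receptor passed an adjusted p of 0.05 by edgeR or DESeq2 between O-NR-RC and O-NR or between O-NR-RC and O-WT (0% of 33350 genes called), and 0 receptors had an unadjusted p below 0.05 (0.291% and 0.795% of genes) or below 0.01 (0.036% and 0.078%). The smallest p against O-NR was that of Il1r1, at 67.6, 39.1 and 38.6 CPM in O-NR-RC and 37.3, 38.0, 33.7 and 32.5 CPM in O-NR. All 3 O-NR-RC libraries lay above every O-NR library, as for 1.2% of genes without overlap, and the edgeR test gave 0.45 (SE 0.29, adjusted p = 1). The size of the difference rested on library O-NR-RC 1, as it was 0.14 without that library, and leaving out any 1 library gave 0.14 to 0.59. Without the 4 libraries with low HSC markers, which leaves O-NR-RC 1 as the only library of its group, the value was 0.95 (edgeR adjusted p = 0.00518, with the lone library assumed to vary like the rest).

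Against O-WT the smallest p was that of Csf1r, at 21.0, 26.7 and 23.2 CPM in O-NR-RC and 22.4 and 17.7 CPM in O-WT, with an edgeR log2 fold change of 0.23 (SE 0.25, adjusted p = 1). All 10 receptors overlapped between these groups (7.95% of genes did not). Il10ra after withdrawal was 47.3, 19.1 and 18.5 CPM, again spanning the O-WT range, and gave 0.55 against O-NR (SE 0.37, edgeR adjusted p = 1). Within cohort 1 the library marker level moved with Csf3r, Csf2ra and Il6st: Csf3r was 65.5 to 80.5 CPM in the 4 libraries with low HSC markers and 89.1 to 147.6 CPM in the other 5, Csf2ra 14.3 to 17.3 against 27.6 to 42.9 CPM, and Il6st 62.7 to 70.6 against 95.4 to 134.1 CPM. These receptors were named after their values were seen, and the share of all genes that separate these libraries was not computed. Depth differed too. Counted reads were 10240871 in O-NR 1, 15474492 in O-NR 2, and 9213144 and 8897256 in O-NR-RC 2 and 3. The other 5 libraries had 13728764 to 23816042. The cause of this split was not tested.

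The cohorts also differed in level, and the labels do not say what else set them apart. Csf1r in HSCs was 17.7 to 23.0 CPM in the O-WT and O-NR libraries of cohort 1 and 3.96 to 14.2 CPM in those of cohort 2, without overlap. Its ratio to the olfactory and vomeronasal level per kilobase was 1.93 to 3.14 in those of cohort 1 and 2.07 to 4.39 in cohort 2, and both Csf1r and that level were higher in cohort 1. The part of stray reads in the Csf1r difference was not tested. Other receptors were higher in cohort 1 too. The ratio of cohort means in O-WT and O-NR was 1.66 and 1.80 for Il6ra and 2.04 and 1.46 for Il1r1, neither with overlap of the cohorts. Per kilobase, Il6ra was 1.30 to 2.63 times the olfactory and vomeronasal level in these cohort 1 libraries and 2.31 to 7.67 times in those of cohort 2. The part of stray reads in its difference was not tested either. The ratio of cohort means was 1.71 and 1.44 for Csf2rb and 1.54 and 1.64 for Csf2rb2, which overlapped in O-NR, 1.43 and 2.06 for Il10ra, which overlapped in O-WT, and 1.22 and 1.38 for Il3ra, which overlapped in both. Csf2ra (0.99 and 0.83), Il6st (1.02 and 0.85) and Csf3r (0.75 and 0.85) were not higher in both groups and overlapped.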

How the data were processed

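Total RNA of sorted cells was sequenced in 33 libraries. The deposited values are raw counts per gene, made by the authors by trimming reads, aligning them with STAR to mm10 and counting them per gene of Gencode M22 with featureCounts; strand and multi-mapping settings are not given in the sources used here. Each library's table held 55376 symbols, and none was normalized or pooled.

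The counts were scaled by TMM and tested with edgeR 4.0.16 (quasi-likelihood test, R 4.3.3) across all genes that exceeded 3 CPM in a number of libraries equal to the size of the smallest group, separately for O-WT and O-NR cell types and for each NR comparison, with p-values adjusted by the Benjamini-Hochberg method and called below 0.05. The scripts were tested on simulated data. Exon lengths, overlaps and coding sequences came from Gencode M21, since M22 was not used here, and start windows from RefSeq on GRCm38.p6. Ratios of Csf2rb to Csf2rb2 were compared by exact permutation (SciPy 1.17.1). All 10 receptors are named with their CPM and cell type fold changes. NR fold changes are tested in the text for those with an unadjusted p below 0.05, or else for the one with the smallest p, and of related lists at most 3 called genes per direction, by smallest p, are named; further values given beside these were chosen after they were seen. Some genes of the lists are not reported here. Alternatives were other scalings, other filters, DESeq2 1.42.0, leaving out libraries, a replicate block, a factor of unwanted variation and wider or narrower sets of libraries. The receptors and lists were chosen with earlier results of these data known. Labels give group and replicate number, and libraries of a group differed by more than sampling noise.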

Additional observations from a re-analysis of the deposited data

Results flagged for a closer look

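Each of the 10 receptors in each group of 4 libraries makes 1 set of values, 70 sets in all. In 6 of the 70, 1 library lay farther from the other 3 than Dixon's criterion allows, and chance gives about 1 in 20. In GMPs of O-NR mice library 4 had 157.6 CPM of Csf1r (others 48.6 to 63.8), 93.8 CPM of Il6ra (others 41.1 to 47.1) and 164.4 CPM of Il6st (others 60.9 to 77.2), so 3 of the 6 were the same library. In HSCs of cohort 2, O-WT library 2 had 21.1 CPM of Csf2ra (others 30.2 to 31.1). In cohort 1, O-NR library 4 had 20.4 CPM of Csf1r (others 22.6 to 23.0) and O-NR library 2 had 26.8 CPM of Il10ra (others 16.3 to 17.4). The NR effect on Il10ra was higher in CLPs than in HSCs by 1.02 on the log2 scale (edgeR adjusted p = 1), which did not pass the correction.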

How the results depend on the processing

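The counts of receptors called between cell types stayed within 1.5 times the reported count under every alternative run. With upper quartile scaling the sign turned for Csf3r (-0.0152) in GMPs against HSCs of O-WT, Csf2rb2 (0.12) and Il3ra (0.19) in CLPs against HSCs of O-WT, Csf2rb2 in GMPs against CLPs (-0.10 in O-WT, -0.24 in O-NR) and Il10ra (-0.13) in GMPs against HSCs of O-NR. It also turned for Il6st in GMPs against CLPs of O-WT (0.11 with DESeq2), for Il6st in GMPs against HSCs of O-NR (0.0124 with median-of-ratios scaling, 0.0163 with edgeR's filter, 0.0517 with DESeq2) and for Il3ra in CLPs against HSCs of O-NR (-0.0247, -0.19 and -0.18 in that order, -0.22 with no filter). None of these was called as reported. Leaving out 1 library gave ranges that crossed 0 for Csf2rb2 in CLPs against HSCs (-0.026 to 0.54) and GMPs against CLPs (-0.11 to 0.31), Il10ra (-0.17 to 0.44) and Il6st (-0.47 to 0.14) in GMPs against HSCs and Il3ra in CLPs against HSCs (-0.25 to 0.10) of O-NR, and for Il3ra in CLPs against HSCs of O-WT (-0.28 to 0.18).

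For NR in cohort 2 HSCs the count of called receptors was 1 (Il10ra), from 0, with no filter and with 1 factor of unwanted variation, and 0 to 1 without 1 library. The count with an unadjusted p below 0.01 was 1 to 2 there and 0 to 3 in GMPs. Without the 4 cohort 1 libraries with low HSC markers, chosen after seeing the data, 1 receptor was called for O-NR against O-WT (0.269% of all genes) and 2 for O-NR-RC against O-NR (0.584%); O-NR-RC was then 1 library in 2 of the 3 comparisons. In that subset 2 receptors had an unadjusted p below 0.01 in each of the 3 comparisons (2.03%, 3.91% and 11% of all genes), and Csf1r after withdrawal against O-WT turned to -0.0482. The NR effect in CLPs minus HSCs had 0 receptors with such a p by DESeq2 (from 1), and in GMPs minus HSCs 1 (from 0) with upper quartile scaling and with no filter. The cause was not tested.

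Libraries share replicate numbers, but same-numbered libraries did not deviate together in every pair (mean r from -0.03 to 0.14), so the numbers were not taken as pairs. The names of the deposited cohort 2 tables give same-numbered HSC, CLP and GMP libraries of one treatment a common tag, so they may come from the same mouse, but no label says so and the tests between cell types treat them as independent. O-WT and O-NR libraries share no tag. With a replicate block the receptors called were 7, 7 and 8 in O-WT and 6, 7 and 9 in O-NR, and 1 for NR in cohort 2 HSCs (Il10ra -1.34, adjusted p = 0.0222 by edgeR). Low counts limit Csf1r, Il3ra and Il10ra in HSCs. A level near that of stray reads limits Csf1r, Il6ra, Csf2rb and Il3ra in cohort 1 HSCs, with lowest ratios of 1.93, 1.30, 1.77 and 1.90. Csf2rb2 fell to 2.18 times that level there. The 2 O-WT libraries also limit cohort 1.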
